A study of Caenorhabditis elegans with 47 samples.

Results

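Neuropeptide receptor genes of Caenorhabditis elegans were followed here, 93 genes of the 17118 measured. A gene was taken when its symbol begins with npr (44 genes), frpr (17), dmsr (14), gnrr (6), nmur (3), sprr (3), tkr (3), ckr (2) or trhr (1) and ends in a number, and when a probe set of the array names that gene alone. The RefSeq gene table of assembly WBcel235 lists 100 such symbols, and 7 of them have no probe set used here. In the RefSeq annotation, chromosome X holds 30 of the 93, V 22, IV 15, II 13, III 7 and I 6.

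RNA of worms expressing GFP, GFP::degron or Abeta was hybridised to 47 Affymetrix arrays, 16, 16 and 15 in that order. All 3 strains grew at 16 °C to an early L3 larval stage on plates with the bacterium OP50 and were then kept at 25 °C, with collection at the shift (T0) and at 4, 8, 12, 16 and 20 h (T4 to T20). Each strain was hybridised once at T0, T4 and T20 and 4 times at T8 and T16, and at T12 there were 5 GFP, 5 GFP::degron and 4 Abeta arrays. The labels call the repeats biological. Abeta is the peptide of amyloid plaques in Alzheimer's disease, GFP is a fluorescent control protein, and GFP::degron joins GFP to a sequence that marks proteins for degradation. The labels name neither the promoter nor the tissue of the transgenes, nor the strain background, nor how many lines stand behind each genotype, so a difference between strains cannot be told apart from a difference between lines.

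Neuropeptides are short signalling peptides cut from precursors and released from dense core vesicles of neurons. Most act on G protein-coupled receptors, membrane proteins that switch heterotrimeric G proteins inside the cell. In C. elegans these receptors sit mainly on neurons and also on muscle, gut and gonad, and they set feeding, locomotion, sleep, egg laying and fat storage. Several are related to vertebrate receptors: the npr genes largely to neuropeptide Y and galanin receptors, nmur to neuromedin U, ckr to cholecystokinin, tkr to tachykinin, gnrr to gonadotropin-releasing hormone and trhr to thyrotropin-releasing hormone receptors. The frpr and dmsr genes are named for receptors of FMRFamide and myosuppressin peptides of Drosophila.

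A level is log2(intensity + 1) of a gene's probe set after each array was centred on the median of its 17118 genes, and a difference is between such levels. GFP T8 replicate 3 was left out of the values below unless said otherwise: its median intensity was 20.8, against 58.4 to 111 on the other 46 arrays. A gene is said to be called when its limma p, adjusted over the 17118 genes by Benjamini and Hochberg, is under 0.05. Counts of called members stand beside the percentage of all genes called the same way. For fits that leave out a further array or a strain that percentage was not computed.

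The receptors were dim. Their mean level over 46 arrays had a median of 5.44 against 6.50 for all genes, and 55 of 93 (59.1%) reached a mean of 5, against 70.9% of all genes. Probe sets differ in how well they bind, so these levels rank signals and not RNA amounts. The brightest signals came from dmsr-1 (8.07), whose receptor answers the sleep-inducing peptide FLP-13, trhr-1 (7.60), npr-5 (7.21), npr-41 (7.14) and npr-29 (6.97). The dimmest came from dmsr-12 (1.25), frpr-8 (2.38), dmsr-15 (2.73), dmsr-11 (3.16) and gnrr-3 (3.20). On every array dmsr-12 and frpr-8 lay under an intensity of 16, and 52 members lay at 16 or more on every array. Replicates of the dim genes scattered most: the SD within groups was 1.24 for dmsr-15 and 0.245 for dmsr-1. At 5.65 on average npr-28 was the member of rank 36, with an SD within groups of 0.272 and no array under an intensity of 16.

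Only npr-28 separated the Abeta worms from both control strains. It was singled out because earlier results of these data had already shown it lower in Abeta worms. Its values, p-values and ranks below therefore describe it and are no independent test. Averaged over T8, T12 and T16, Abeta minus GFP was -1.20 ± 0.113 (SE, limma adjusted p = 1.58e-07). Abeta minus GFP::degron was -1.27 ± 0.110 (limma adjusted p = 4.50e-09), and 12 of 12 Abeta arrays lay below the mean of either control at their hour. These are 2.30-fold and 2.41-fold lower levels, on the log2(intensity + 1) scale. Between the control strains it differed by 0.06 ± 0.111 (limma adjusted p = 0.747). No member was higher in Abeta worms than in both controls, and 1 was lower, against 0.111% higher and 0.0993% lower among all genes. The gene, F55E10.7 on chromosome X, is represented by 1 probe set.

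The separation was present at the shift. At T0 npr-28 read 6.12 (GFP), 6.75 (GFP::degron) and 5.03 (Abeta), and at T4 at 6.45, 6.72 and 4.36. These single arrays put Abeta lowest by 1.08 at T0 and 2.09 at T4, before any of the hours in which the replicated groups were collected. At T8 its level was 6.14, 6.04 and 5.92 on the GFP arrays, 6.29, 6.05, 5.82 and 6.38 on the GFP::degron arrays and 5.11, 5.04, 4.69 and 4.92 on the Abeta arrays. The control strains overlapped and the highest Abeta array lay 0.72 below the lowest control array.

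At T12 the 5 GFP arrays read 6.40, 6.25, 6.30, 6.34 and 6.34, the 5 GFP::degron arrays 6.44, 6.20, 5.88, 5.72 and 6.12, and the 4 Abeta arrays 4.31, 5.04, 5.23 and 5.08. At T16 the values were 5.37, 5.86, 5.66 and 5.55 (GFP), 6.48, 5.53, 5.97 and 5.82 (GFP::degron), and 4.77, 4.64, 4.02 and 4.58 (Abeta). The Abeta arrays lay below the control arrays again, by at least 0.49 at T12 and 0.60 at T16. At T20 the 3 single arrays read 5.92, 5.61 and 4.64, with Abeta lowest by 0.97. On the array left out of GFP T8, npr-28 read 6.05 after centring, inside the range of the other GFP arrays of that hour.

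**Figure D1:**
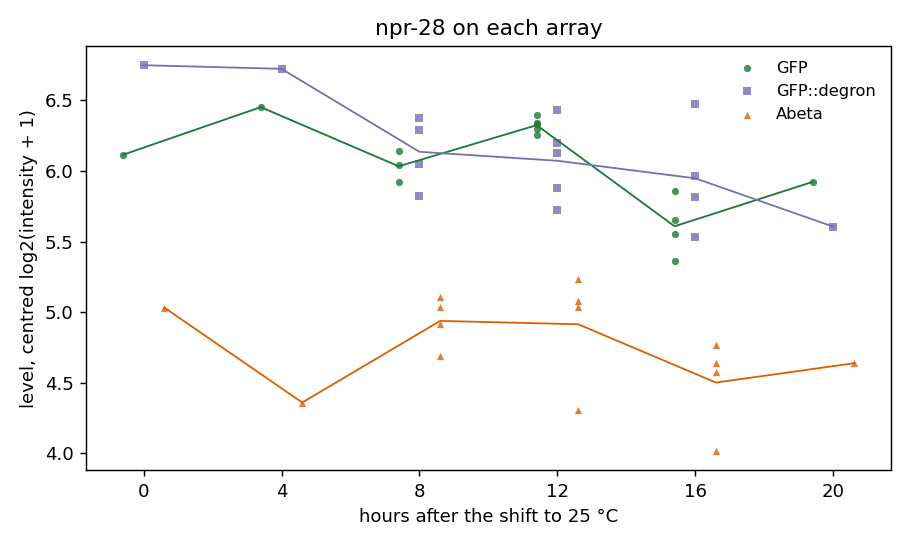
Level of npr-28, centred log2(intensity + 1), on each of 46 arrays against hours after the shift to 25 °C, with points of the strains drawn slightly side by side and lines through the group means. At T8 the Abeta arrays ended at 5.11 and the control arrays began at 5.82, and at each of the 6 times no Abeta array reached a control array.

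Such a separation at all 6 times was found for 3 of the 17118 genes (0.0175%), which are F14F8.8, K09C6.9 and npr-28, and in the opposite direction for 0 genes. Of the 93 members npr-28 was the 1 that met it. Whole worms were hybridised, so fewer cells that carry a receptor and less of its RNA per cell cannot be told apart, for npr-28 and for the members below.

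Hour by hour, npr-28, chosen with this difference known, was called in 5 of 6 comparisons with Abeta. Abeta minus GFP was -1.10 ± 0.209 at T8 (limma adjusted p = 0.101), -1.41 ± 0.184 at T12 (adjusted p = 0.000238) and -1.11 ± 0.194 at T16 (adjusted p = 0.00162). At T8 the threshold was missed, and by limma 0 of all genes were called there in either direction, with 769 at an unadjusted p under 0.05. Abeta minus GFP::degron was -1.20 ± 0.194 (limma adjusted p = 0.00216), -1.16 ± 0.184 (adjusted p = 0.00199) and -1.45 ± 0.194 (adjusted p = 8.20e-05) in the same order. Apart from npr-28, the 6 hourly Abeta comparisons called 1 member, npr-8, higher than in GFP worms at T16. Of all genes, 0.0234% were called higher and 0.0701% lower than GFP at T12, and 0.783% and 1.46% at T16. Against GFP::degron the shares were 0.0351% higher and 0.0935% lower at T8, 0.152% and 0.210% at T12, and 0.0584% and 0.0876% at T16. The change of npr-28 from T8 to T16 was not called between strains: Abeta minus GFP was -0.01 ± 0.285 and Abeta minus GFP::degron -0.25 ± 0.274 (limma adjusted p = 1.00 for both).

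Set against its family, npr-28, chosen with this difference known, was the lowest of 93 members in both averaged comparisons with Abeta. Next came gnrr-7 at -0.34 against GFP worms (limma adjusted p = 0.434) and npr-3 at -0.40 against GFP::degron worms (adjusted p = 0.182). The other 92 had medians of 0.12 and -0.03. In the comparison of the control strains npr-28 ranked 34 from the lowest. By hour it was the lowest member in 5 of the 6 Abeta comparisons, while at T16 against GFP worms frpr-8 was lower, at -1.24, with its probe set under an intensity of 16 on every array and not called.

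**Figure D2:**
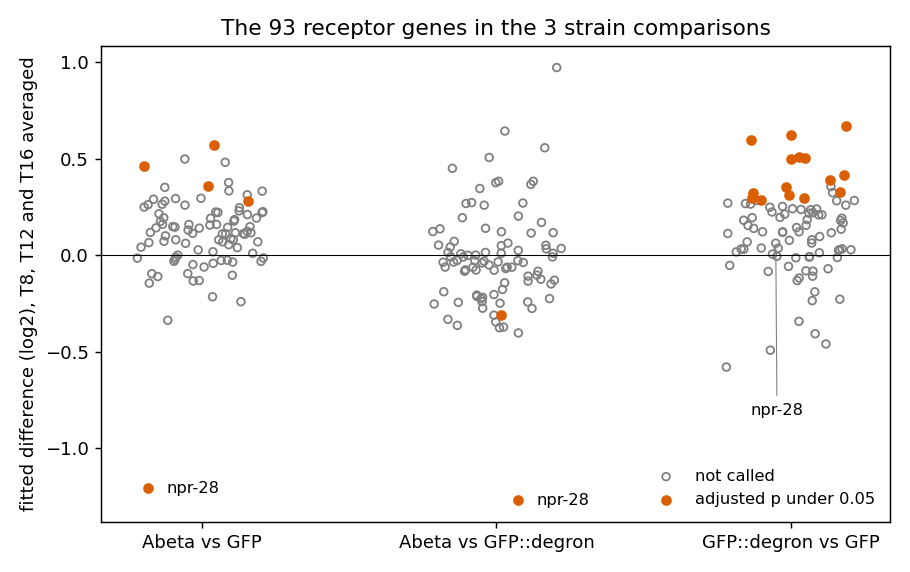
Fitted log2 difference of each of the 93 receptor genes in the 3 strain comparisons averaged over T8, T12 and T16, with called genes filled. Below -1 lay npr-28 alone, at -1.20 and -1.27 in both Abeta comparisons, while in GFP::degron against GFP the called genes lay above 0.

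The RNAs whose levels ran most like npr-28 over the 46 arrays were not members of the family. By Pearson correlation they were F14F8.8 (0.87), K09C6.9 (0.86), the mitochondrial superoxide dismutase gene sod-3 (0.84), drd-5 (0.76) and the glutathione peroxidase gene gpx-2 (0.76). Among members the closest were sprr-2 (0.57), npr-5 (0.50), sprr-1 (0.46), dmsr-5 (0.45) and tkr-1 (0.45), and none of these 5 was called between Abeta and either control. These correlations describe 46 arrays that share strains and hours, and they carry no test. F14F8.8, K09C6.9 and sod-3 were lower in Abeta worms than in both controls, at -2.47, -1.39 and -0.91 relative to GFP, and they exceeded GFP levels in GFP::degron worms by 1.35, 0.82 and 0.40, where npr-28 was not called. On the single arrays of T0, npr-5 read 7.13 (Abeta), 7.96 (GFP) and 8.65 (GFP::degron), with Abeta lowest as for npr-28. At T12 its strains overlapped between 7.31 and 8.33.

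One of these genes is also next to npr-28 on chromosome X when the measured genes are put in order of their start. Distances were not computed. In that RefSeq order drd-5 is the measured gene directly before npr-28. Its Abeta levels differed from GFP by -0.80 (limma adjusted p = 0.000166) and from GFP::degron by -0.77 (limma adjusted p = 0.000144). Between the control strains drd-5 differed by -0.04 (limma adjusted p = 0.870). Of the 5 measured genes on each side, drd-5 was the 1 called in a comparison with Abeta. The other 9 genes lay between -0.49 and 0.35 against GFP worms and were not called. On the other side the adjoining measured gene is nep-14, which was dim, at -0.49 when compared with GFP (limma adjusted p = 0.650) and 0.45 when compared with GFP::degron (limma adjusted p = 0.681).

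Beyond npr-28, few receptors told Abeta from a single control. Against GFP worms 4 members were higher (2.16% of all genes) and 1 was lower (2.13%). All 4 belong to the npr group: npr-39 by 0.57 ± 0.169 (limma adjusted p = 0.0493), npr-25 by 0.47 ± 0.0951 (adjusted p = 0.00610), npr-8 by 0.36 ± 0.0872 (adjusted p = 0.0172) and npr-29 by 0.28 ± 0.0801 (adjusted p = 0.0386). Of these npr-8 is known for restraining collagen genes of the cuticle in the defence against pathogens. Across all members 70 of 93 differences from GFP lay above 0, with a median of 0.12 against 0.01 for all genes.

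At T16, where npr-8 was called by itself (0.56 ± 0.149, limma adjusted p = 0.0395), it read 5.48, 5.60, 5.93 and 6.32 in GFP and 6.28, 6.25, 6.76 and 6.29 in Abeta worms. The highest GFP array lay among the Abeta arrays. The level of npr-25 at T16 was 4.80, 5.07, 4.91 and 4.95 in GFP, 5.57, 5.61, 5.20 and 5.69 in Abeta, and 5.43, 5.32, 5.59 and 5.88 in worms of the GFP::degron strain. GFP was lowest without overlap and the other strains were mixed. For npr-39 the GFP arrays of T16 were 4.95, 3.30, 4.83 and 5.05 and the Abeta arrays 5.88, 5.22, 5.39 and 5.54. The strains did not overlap there, and 1 GFP array lay far below the rest.

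The call of npr-39 ended without any 1 of 27 of the 37 arrays (adjusted p up to 0.116), and that of npr-29 without any 1 of 14 (adjusted p up to 0.0763). The count of 5 was 3 without GFP T8 replicate 1, 2 or 4, GFP T12 replicate 1 or 4, GFP T16 replicate 2 or 3, Abeta T8 replicate 1 or 2, Abeta T12 replicate 3 or 4, or Abeta T16 replicate 1 or 4, and it was 8 without GFP T12 replicate 3. It was 2 when Abeta and GFP arrays alone were fitted, namely npr-28 and npr-25. Of all genes called here 50.3% were higher, 68.0% without scaling of the arrays and 61.2% after quantile normalization.

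Against GFP::degron worms, Abeta worms had 0 members higher (0.695% of all genes) and 2 lower (1.62%), npr-28 and ckr-1. The latter encodes a cholecystokinin receptor homolog that answers NLP-12 peptides. Its difference was -0.31 ± 0.0725 (limma adjusted p = 0.0172), with 12 of 12 Abeta arrays below the GFP::degron mean of their hour, and -0.27 with the stage score described below as a covariate (adjusted p = 0.0682). At T12 ckr-1 read 5.75, 5.61, 5.62 and 5.80 (Abeta), 5.98, 5.96, 6.07, 5.85 and 6.38 (GFP::degron), and 5.70, 5.74, 5.57, 5.81 and 5.48 (GFP). Abeta and GFP lay together there and GFP::degron above both, and the fitted difference of GFP::degron from GFP was 0.42 ± 0.0734 (limma adjusted p = 0.000196). Of all genes called 30% were higher, and 17.9% without scaling.

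More members, and more of all genes, were called between the control strains. GFP::degron worms had 15 members higher than GFP worms (16.1%, against 12.3% of all genes) and 0 lower (11.7% of all genes). Above 0 lay 71 of 93 differences, with a median of 0.14 against 0.00 for all genes. The strongest were npr-39 (0.67 ± 0.167, limma adjusted p = 0.00370), npr-2 (0.62 ± 0.126), npr-3 (0.60 ± 0.159), npr-6 (0.51 ± 0.105), trhr-1 (0.50 ± 0.130) and npr-25 (0.50 ± 0.0936). The peptides known to act on the products are FLP-15 for npr-3 and NLP-54, which promotes growth, for trhr-1. The others, from 0.42 to 0.29, were ckr-1, npr-34, sprr-1, dmsr-8, npr-16, tkr-2, frpr-21, npr-27 and dmsr-1.

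By hour, limma called 0 members at T8 (0.327% of all genes higher, 0.129% lower) and 0 at T12 (0.0759% in each direction), with 10 and 7 members at an unadjusted p under 0.05. At T16 it called 8 higher (8.60%, against 11.2% of all genes) and 0 lower (9.79% of all genes). There trhr-1 read 8.03, 7.55, 8.06 and 7.94 (GFP::degron), 7.14, 6.91, 6.71 and 6.68 (GFP) and 7.48, 6.53, 6.68 and 7.27 (Abeta). GFP::degron stood above the other strains without overlap. For npr-2 at T16 the arrays were at 6.12, 5.80, 5.96 and 5.71 (GFP::degron), 4.99, 4.69, 5.04 and 5.15 (GFP) and 5.73, 5.02, 5.00 and 5.44 (Abeta). GFP::degron was above every GFP array, and the highest Abeta array fell inside its range.

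Markers of stage and of other tissues moved with this contrast. The stage score, which is 1 unit for the T16 minus T8 change of GFP worms over 500 genes outside the family, averaged 0.81 ± 0.0759 (SD, n = 4) at T16 for GFP, 0.46 ± 0.221 for Abeta and 0.07 ± 0.354 for GFP::degron worms. The GFP::degron arrays were uneven, at -0.19, 0.59, -0.02 and -0.10, with replicate 2 far above the other 3, which lay below 0. The score was built on GFP arrays that also enter this contrast. With it as a covariate 0 members were called between GFP::degron and GFP. Of all genes 23 were then called higher and 172 lower there, against 2101 and 2004 without it. In that fit npr-39, npr-2, npr-3 and trhr-1 stood at 0.22, 0.25, 0.10 and 0.11. The difference of npr-6 did not shrink, at 0.52 (limma adjusted p = 0.0719), and ckr-1 and npr-25 stood at 0.31 and 0.29. Both calls of npr-28 remained, with Abeta minus GFP at -1.34 (limma adjusted p = 1.10e-07) and Abeta minus GFP::degron at -1.17 (limma adjusted p = 5.64e-08). The 4 members higher in Abeta than in GFP worms lost their calls with it, at 0.21 to 0.39. Over all genes the calls of that comparison went from 370 higher and 365 lower to 9 and 28. In GFP::degron relative to GFP worms 7 of 10 germ line markers were lower and 10 of 14 neuronal markers higher, with 1 lower, while in Abeta relative to GFP worms 4 of 10 were lower and 1 of 14 higher. Of 8 markers each, body wall muscle had 2 lower, intestine 1 higher and 1 lower, and epidermis 1 higher and 2 lower in GFP::degron relative to GFP worms, and body wall muscle had 2 lower in Abeta relative to GFP worms. The mean level of the germ line markers at T16 ranged over arrays from 9.46 to 9.82 (GFP), 8.83 to 9.33 (Abeta) and 8.08 to 9.05 (GFP::degron), and that of the neuronal markers 6.60 to 7.0, 6.80 to 7.29 and 6.97 to 7.43. Among the neuronal markers rgef-1 was under an intensity of 16 on 45 of 46 arrays. The part of the germ line and neuronal markers in the result was not tested.

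The probe sets of some receptors disagree. The calls of sprr-1 (0.36) and npr-16 (0.33) rest on their brighter probe sets, and the second ones differed by 0.05 ± 0.0991 and 0.06 ± 0.0966. With GFP T8 replicate 3 kept, npr-16 was not called either (0.19, limma adjusted p = 0.350), and dmsr-8 lost its call without any 1 of 7 arrays (adjusted p up to 0.0811). Removing GFP::degron T8 replicate 1 ended the call of sprr-1 (adjusted p = 0.0580). The count of 15 was 26 after quantile normalization, beside 2841 of all genes higher and 2331 lower. With centring 51.2% of all calls were higher, against 61.9% without scaling. At T16 the share was 53.4% and without scaling 65.6%, and for Abeta against GFP at T16 it was 34.9%, 67.1% without scaling and 63.2% after quantile normalization. The shares of the other hourly comparisons, which rest on at most 78 calls, moved by more than 10 points too: in GFP::degron against GFP from 71.8% to 83.2% without scaling and to 60.1% after quantile normalization at T8, and from 50.0% to 36.4% after quantile normalization at T12. In Abeta against GFP at T12 the share went from 25.0% to 42.9% after quantile normalization. In Abeta against GFP::degron it went from 27.3% to 15.8% without scaling at T8 and to 38.7% after quantile normalization, and from 40% to 23.8% without scaling at T16.

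Ligand genes were higher in GFP::degron worms as well. Of 22 measured precursors of peptides with known receptors 20 were higher and 0 lower, with a median of 0.58, among them flp-13, whose peptides act on the dmsr-1 product (0.81), flp-18, a ligand of npr-1, npr-4 and npr-5 products (0.78), and nlp-12 (0.55). Abeta worms had 4 of 22 higher than GFP and 1 lower than GFP::degron worms. The 1 lower was daf-28 (-0.42, limma adjusted p = 0.0460), an insulin-like peptide gene that is paired with no receptor named here. Of 36 genes for peptide processing and receptor signalling 12 rose and 0 fell in GFP::degron relative to GFP worms, 1 was higher in Abeta than in GFP worms and 3 were lower in Abeta than in GFP::degron worms. Both comparisons with GFP use the same GFP arrays.

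**Figure D3:**
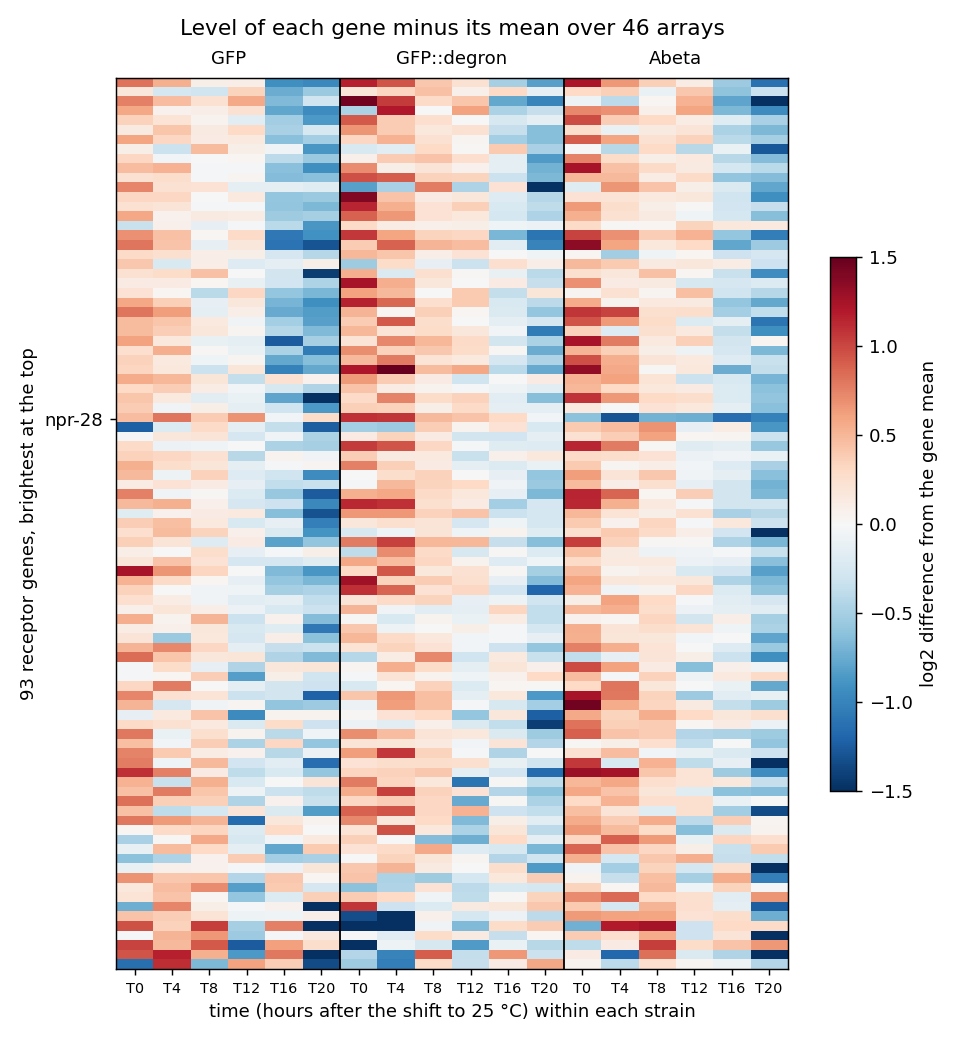
Mean log2 level of each of the 93 receptor genes per strain and time, minus the mean of that gene over 46 arrays, with the brightest gene at the top and colours cut at -1.5 and 1.5. From T0 to T20 most rows turn from red to blue in each strain, and the row of npr-28 is blue at the 6 times of the Abeta worms.

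With hours after the shift most receptors became lower. From T0 to T20, with the strains as blocks on 9 arrays, 59 of 93 members were lower (27.8% of all genes) and 0 higher (12.2%). Their median difference was -0.95 against -0.39 for all genes, a gap of -0.55. Lower at T20 than at T0 in all 3 strains at once were 71 members, or 76.3% against 48.0% of all genes. Higher in all 3 were 0 members, against 17.5% of all genes. Among genes with a mean level of at least 5, refitted alone, 47 of 55 members were lower against 41.6% of 12130 genes. Without scaling between arrays, 21 members were called lower, each of them also among the 59, and 60.8% of all calls were higher, against 30.5% with centring and 39.6% after quantile normalization. Leaving out the scaling moved the gene median to -0.02 and the members' median to -0.57, with the same gap by construction, since centring shifts all genes of an array alike.

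Among called members the decline was led by dmsr-1 (-2.03 ± 0.171, limma adjusted p = 0.000585), ckr-2 (-1.94 ± 0.172, adjusted p = 0.000676), npr-5 (-1.81 ± 0.288), frpr-12 (-1.80 ± 0.216), npr-2 (-1.79 ± 0.262) and npr-32 (-1.77 ± 0.411). For dmsr-1 the level went from 8.89 to 7.11 (GFP), from 9.24 to 7.26 (GFP::degron) and from 9.30 to 6.96 (Abeta). The 3 T20 arrays lay below the 3 T0 arrays without overlap. For npr-32 the strains were uneven, at -1.91, -0.52 and -2.90 in the same order. Below these followed frpr-17, npr-3, npr-25, npr-45, dmsr-7 and npr-34, from -1.68 to -1.47.

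These calls rest on 3 arrays per time. The count of 59 was 32 without the GFP worms, 12 without the Abeta worms and 45 without the GFP::degron worms. Leaving out a strain leaves fewer arrays for the spread of every gene. Calls over all genes were not counted in these fits, so the drops cannot be read as particular to the receptors. Of the 12 members named, npr-5, npr-3 and npr-25 lost the call without the Abeta arrays (adjusted p = 0.0656, 0.0701 and 0.0609), and npr-32 without the Abeta (0.115) or the GFP arrays (0.109). Without scaling npr-32 (adjusted p = 0.0938) and npr-25 (0.0504) were not called.

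**Figure D4:**
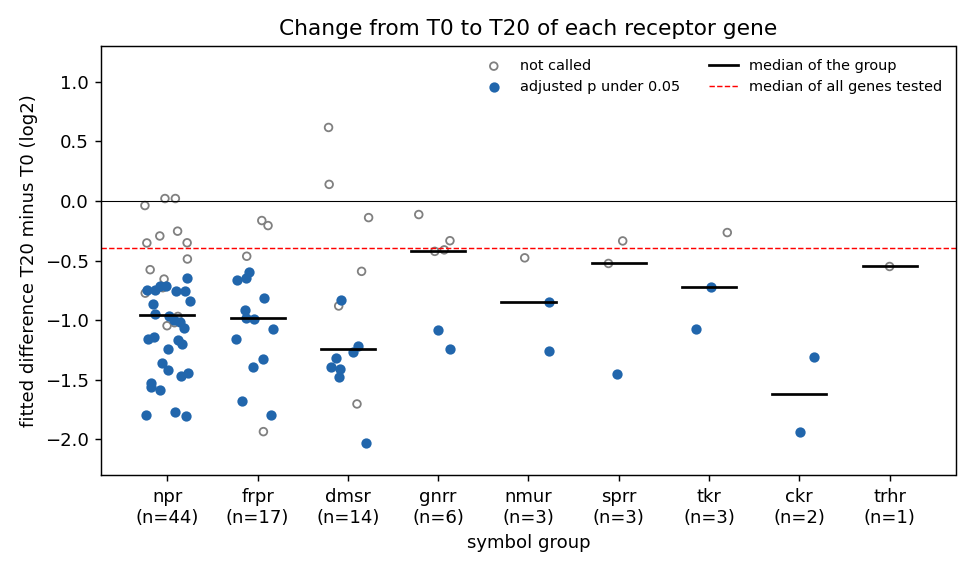
Fitted T20 minus T0 difference (log2) of each of the 93 receptor genes, by symbol group, with called genes filled, a bar at the median of each group and a dashed line at the median of all genes, -0.39. All ckr genes and most npr and frpr genes are filled and lie below the dashed line, whereas 4 members lie above 0 and none of them is called.

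By group, the T20 fall took in 29 of 44 npr genes (median -0.95), 13 of 17 frpr (-0.98), 8 of 14 dmsr (-1.24), 2 of 6 gnrr (-0.42), 2 of 3 nmur (-0.85), 1 of 3 sprr (-0.52), 2 of 3 tkr (-0.72), both ckr (-1.62) and not trhr-1 (-0.55 ± 0.180, limma adjusted p = 0.0516). Among receptors of FLP-18 peptides npr-5 and npr-1 fell, the latter by 1.17 ± 0.239, while npr-4 was at -1.05 ± 0.448 (adjusted p = 0.107). The product of npr-1 is known for suppressing aggregation on food. Of the receptors of FLP-13, which quiets the worm under stress, dmsr-1 fell and frpr-4 stood at -0.21 ± 0.310.

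Other receptors with a known ligand or function moved unevenly. npr-9, which acts in the AIB interneurons to limit food search, fell by 0.72 ± 0.204 (limma adjusted p = 0.0331), npr-17, an opioid-like receptor gene, by 0.74 ± 0.234, while npr-22, which answers FLP-7 peptides in fat regulation, was at -1.41 ± 0.192. frpr-18, the receptor gene of the arousal peptide FLP-2, fell by 1.39 ± 0.208, and frpr-3 by 0.98 ± 0.171. nmur-1, a neuromedin U receptor homolog that ties lifespan to the bacteria eaten, fell by 1.26 ± 0.286 and nmur-2 by 0.85 ± 0.256, while nmur-3 was at -0.48 ± 0.309. The receptor gene npr-11, which answers NLP-1 in olfactory adaptation, was dim and stood at -0.25 ± 0.617.

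Of the remaining small groups, tkr-1 (-1.07 ± 0.192) and tkr-2 (-0.72 ± 0.219) fell and tkr-3 was at -0.27 ± 0.268. sprr-1 fell by 1.45 ± 0.163, and sprr-2 and sprr-3 were at -0.52 and -0.34. gnrr-2 (-1.25 ± 0.229) and gnrr-4 (-1.09 ± 0.216) fell, and gnrr-1, the receptor gene of the gonadotropin-releasing hormone-like peptide NLP-47, was at -0.33 ± 0.379. The dim gnrr-3 and the genes gnrr-6 and gnrr-7 were at -0.11, -0.42 and -0.41 and not called. No member of the gnrr and nmur groups was called in a strain comparison averaged over the hours. At T16 alone gnrr-1 in GFP::degron exceeded GFP by 0.58 ± 0.205 (limma adjusted p = 0.0413).

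Within the replicated hours the same direction was seen in each strain. From T8 to T16, 31 members fell in GFP worms (15.6% of all genes), 12 in GFP::degron worms (3.22%) and 23 in Abeta worms (9.19%), and 0 rose in any strain (11%, 3.22% and 8.04%). The members' median differences were -0.47, -0.37 and -0.43, against -0.22, -0.05 and -0.20 for all genes. Without scaling the gene medians were -0.15, 0.04 and -0.03 and the members' medians -0.40, -0.28 and -0.27. Called in all 3 strains were ckr-2, dmsr-1, dmsr-8, frpr-7, npr-12, npr-27, npr-29 and npr-5, and 35 members were called in at least 1 strain. Both ckr genes were lower at T16 in GFP worms, by 1.11 ± 0.234 for ckr-2 and 0.50 ± 0.138 for ckr-1.

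ckr-2 shows the course. At T8 it read 6.48, 5.85 and 6.05 (GFP), 6.22, 6.57, 6.50 and 6.40 (GFP::degron) and 6.79, 6.60, 6.0 and 6.45 (Abeta). At T12 it read 6.11, 6.67, 6.96, 6.05 and 6.11, then 6.80, 6.53, 6.43, 6.31 and 5.96, then 6.46, 6.71, 6.82 and 6.47 in the same order of strains. At T16 it read 5.05, 4.70, 5.15 and 5.18, then 5.83, 5.22, 5.18 and 5.39, then 5.74, 5.55, 4.94 and 5.80. The arrays of T8 and T12 overlapped in each strain, and each T16 array lay below the T8 and T12 arrays of its strain.

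dmsr-1 in GFP worms was at 8.56, 7.97 and 7.97 at T8, 8.07, 8.35, 8.44, 8.04 and 7.97 at T12 and 7.05, 7.27, 7.16 and 7.15 at T16. The T16 arrays stood apart from the earlier ones. Its fitted fall from T8 to T16 was 1.01 ± 0.191 in GFP (limma adjusted p = 0.000300), 0.89 ± 0.177 in GFP::degron (adjusted p = 0.00278) and 0.90 ± 0.177 in Abeta worms (adjusted p = 0.000729). For npr-5 the falls were 0.89 ± 0.272, 1.05 ± 0.252 and 0.82 ± 0.252, and its second probe set gave -1.03, -0.99 (not called, limma adjusted p = 0.0634) and -0.98. Each of the 3 calls of npr-5 ended without any 1 of 3 arrays (adjusted p up to 0.122).

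**Figure D5:**
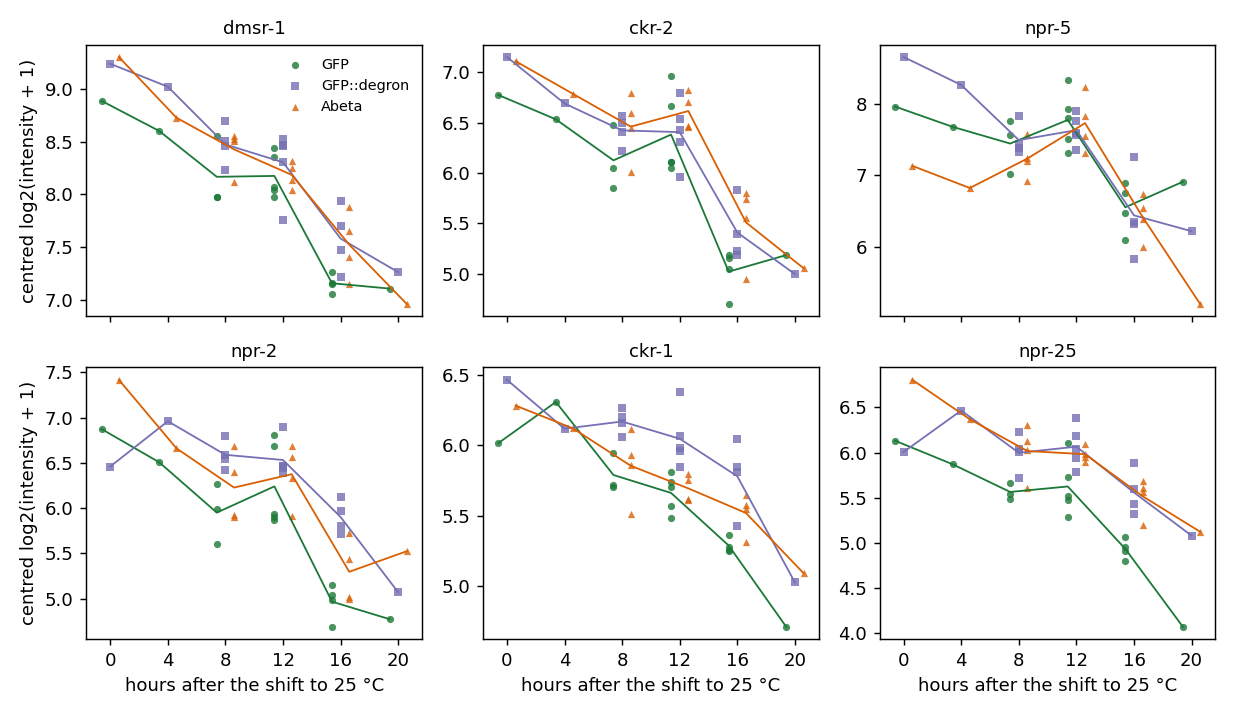
Levels of dmsr-1, ckr-2, npr-5, npr-2, ckr-1 and npr-25, centred log2(intensity + 1), on each of 46 arrays against hours after the shift to 25 °C, with lines through group means and strains drawn slightly side by side. The 6 genes are lower at T20 than at T0 in each strain, ckr-1 lies highest in GFP::degron worms at T8, T12 and T16 by group mean, and npr-25 is lowest in GFP worms at those hours.

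The other leading genes of the replicated hours were npr-39 (-1.14 ± 0.313), npr-2 (-0.98 ± 0.237) and dmsr-5 (-0.98 ± 0.231) in GFP worms. With GFP T8 replicate 3 kept, npr-2 was at -0.39 and not called (limma adjusted p = 0.392), and npr-39 was at -0.73 without GFP T16 replicate 2 (adjusted p = 0.0463). In GFP::degron worms they were npr-6 (-0.84 ± 0.183), npr-22 (-0.75 ± 0.209) and npr-12 (-0.74 ± 0.178), of which npr-22 lost its call without any 1 of 5 arrays and npr-12 without any 1 of 2. In Abeta worms they were npr-2 (-0.93 ± 0.219), nmur-1 (-0.77 ± 0.173) and frpr-18 (-0.75 ± 0.261), of which the last lost its call without any 1 of 5 arrays and with its second probe set (-0.43, adjusted p = 0.147). With GFP T8 replicate 3 kept, the Abeta calls of npr-2 (adjusted p = 0.0619) and frpr-18 (adjusted p = 0.109) ended. No difference between strains in the T16 minus T8 change was called for a member by limma. Of all genes 0% were higher and 0.0175% lower in Abeta minus GFP, 0.0175% and 0.140% in GFP::degron minus GFP, and 0.00584% and 0% in Abeta minus GFP::degron. Members with an unadjusted p under 0.05 numbered 0, 2 and 1, and with array weights 3 were called in all. Of all genes the weights called 92 higher and 211 lower, 1852 and 1134, and 47 and 19 in the same order.

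The counts moved with single arrays. In GFP worms the 31 were 17 without T8 replicate 1 and 20 without T16 replicate 1. In GFP::degron worms the 12 were 5 without T8 replicate 1, 6 without T8 replicate 2, 3 without T16 replicate 2 and 6 without T16 replicate 3, and 0 when the T8 and T16 arrays of that strain alone were fitted. In Abeta worms the 23 were 11 and 9 without T8 replicate 1 or 2, 7 without T16 replicate 3, and 15 with GFP T8 replicate 3 kept in the fit. Of all calls 41.3%, 50.0% and 46.7% were higher in GFP, GFP::degron and Abeta worms, and 47.7%, 60.5% and 71.6% without scaling.

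Ligands and neuronal markers went down over the same hours and germ line markers went up. From T0 to T20, 21 of 22 ligand genes, 25 of 36 signalling genes and 11 of 14 neuronal markers were lower, 0 of each were higher, and 10 of 10 germ line markers were higher. Median differences were -1.66, -0.93 and -1.49 for the first 3 lists and 1.96 for the germ line. On the ligand list daf-28, an insulin-like peptide gene paired with no receptor named here, was at -2.27, and nlp-12 was at -1.57. From T8 to T16 the lists had 19, 3 and 15 ligand genes, 15, 7 and 15 signalling genes and 10, 1 and 7 neuronal markers lower in GFP, GFP::degron and Abeta worms, with 1 ligand gene higher in Abeta worms, and 8, 6 and 7 germ line markers higher. Over T0 to T20 body wall muscle, intestine and epidermis markers were lower in 5, 3 and 3 of 8, and 2 of the epidermis markers were higher. The mean level of the germ line markers went from 6.84 to 7.12 at T0 to 9.24 to 9.92 at T20, and that of the neuronal markers from 8.21 to 8.26 down to 6.77 to 7.01. Their part in the fall of the receptors was not tested.

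npr-28 was not called in any comparison over time. It was at -0.42 ± 0.209 from T8 to T16 in GFP (limma adjusted p = 0.139), -0.19 ± 0.194 in GFP::degron (adjusted p = 0.677) and -0.44 ± 0.194 in Abeta worms (adjusted p = 0.121), and at -0.58 ± 0.299 from T0 to T20 (adjusted p = 0.168). From the lowest of 93 these ranked 51, 62, 45 and 70, and the medians of the other 92 members were -0.48, -0.38, -0.43 and -0.95. It was 1 of 30 members called neither from T8 to T16 in a strain nor from T0 to T20. The 30 include the dim dmsr-10 to dmsr-15 and gnrr-3 and also bright receptors such as trhr-1 and npr-8.

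Over the first 4 h no change was called. From T0 to T4, 0 members and 0 of all genes were called by limma, with 1 member and 1324 genes at an unadjusted p under 0.05. The members' median difference was -0.13 against -0.06 for all genes, and 67 of 93 lay below 0 against 58.5% of all genes, but 44 of 93 without scaling, where the medians were 0.01 and 0.07. By strain the members' medians were -0.14 (GFP), -0.03 (GFP::degron) and -0.31 (Abeta), each from a single pair of arrays.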

How the data were processed

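Total RNA of the 47 samples was hybridised as biotin-labelled cRNA to Affymetrix arrays, per the labels' protocols. The deposited values are linear intensities per probe set, and the submitters' processing notes name Affymetrix Expression Console 1.1 as the authors' tool. How probes were summarised and arrays scaled is not given in the sources used here. Of 22625 probe sets, 77 controls were left out, 20766 named 1 gene in the platform annotation of 2016 and 887 named several. The brightest probe set stood for a gene.

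Levels were log2(intensity + 1), which understates changes of dim genes, with each array's median subtracted; the deposited intensities carried no log2 step. Limma 3.58.1 in R 4.3.3 fitted 9 group means to 37 arrays of T8, T12 and T16 (28 residual degrees of freedom), averaged strain differences equally over the hours, and fitted time with strain as block to the 9 arrays of T0, T4 and T20 (4 residual degrees of freedom). The fits were tested on simulated data. The number of arrays limits precision, and the labels name no batch. Errors are SE of differences or SD between arrays.

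The receptors, marker lists, tests and alternatives were chosen with earlier results of these data known. Genes named were npr-28, its neighbours and most similar genes, members called between strains or from T0 to T20 (up to 12 per direction), up to 6 per direction for T16 against T8 in each strain, the brightest and dimmest 5, all ckr, nmur, tkr, sprr, trhr and gnrr genes and 14 receptors with known ligands or functions. Alternatives changed scaling, offset, filter, weights, blocks, covariates, probe sets and arrays. The labels do not say that a replicate number marks a shared batch, so the numbers were not used as pairs in the main fit. Deviations of same-numbered arrays correlated between -0.586 and 0.489. Above 0.1 were 51 of 137 same-numbered pairs and 105 of 470 other pairs. These correlations do not settle whether the numbers share a batch, and results with a replicate block are given at the end. No protein or promoter sequences were used here.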

Additional observations from a re-analysis of the deposited data

Results flagged for a closer look

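The levels of 12 receptors printed above were searched for arrays far from the rest of their group, in 96 groups of 4 or 5 arrays, and 6 were found; chance flags about 1 in 20 groups. npr-39 on GFP T16 replicate 2 stood at 3.30, with the other 3 arrays between 4.83 and 5.05, and without that array npr-39 differed by 0.43 between Abeta and GFP and by 0.53 between GFP::degron and GFP worms. npr-8 on Abeta T16 replicate 3 stood at 6.76 against 6.25 to 6.29, and on GFP::degron T8 replicate 2 at 6.38 against 6.29 to 6.30. dmsr-1 stood at 7.76 on GFP::degron T12 replicate 4 against 8.31 to 8.53, and at 8.12 on Abeta T8 replicate 3 against 8.51 to 8.56. npr-2 on GFP::degron T12 replicate 4 stood at 6.89 against 6.38 to 6.47. The cause of these values was not tested.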

How the results depend on the processing

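The calls of npr-28 against both controls held under 10 alternatives each, of which other probe sets could not move them because npr-28 has 1, and without each of the 37 arrays, between -1.34 and -0.88 against GFP and between -1.31 and -0.93 against GFP::degron worms. Leaving out arrays gave -1.24 to -1.14, -1.31 to -1.20 and, between the controls, 0.0049 to 0.11. Without each array the called members ranged from 3 to 8 (Abeta against GFP), 12 to 19 (GFP::degron against GFP), 2 to 3 (Abeta against GFP::degron), 1 to 1 (both controls), 17 to 33, 3 to 18 and 7 to 27 (T16 against T8 in GFP, GFP::degron and Abeta), 11 to 21 (single hours), 0 to 0 (differences of changes; T4 against T0) and 12 to 45 (T20 against T0). Array weights gave 24, 35, 8 and 2 members in the 4 strain counts, 38 for T16 against T8 in GFP::degron, 102 over the 9 single-hour comparisons (14 otherwise) and 3 in differences of changes. Calls over all genes were then 2856 higher and 2601 lower (Abeta against GFP), 4179 and 3413 (GFP::degron against GFP), and 696 and 986 (Abeta against GFP::degron). For both controls at once they were not counted. For T16 against T8 in GFP::degron worms they were 1719 and 2143. Among single hours they were most in GFP::degron against GFP at T16, 4382 higher and 3046 lower. The stage score gave 1, 0 and 1 in the 3 strain comparisons and 6 at single hours. Of all genes it called 9 higher and 28 lower (Abeta against GFP), 23 and 172 (GFP::degron against GFP), and 157 and 126 (Abeta against GFP::degron). At single hours most were called in GFP::degron against GFP at T8, 91 higher and 59 lower. Without scaling, 7, 9 and 21 were called for T16 against T8 in GFP::degron and Abeta worms and T20 against T0. Of all genes 482 were then higher and 315 lower, 1519 and 603, and 2450 and 1577 in that order. Quantile normalization gave 26 for GFP::degron against GFP, beside 2841 of all genes higher and 2331 lower. It gave 24 at single hours, where all genes reached 2903 higher and 1966 lower, in GFP::degron against GFP at T16. Fitting only the groups compared gave 2 for Abeta against GFP and 0 for T16 against T8 in GFP::degron worms, and keeping the dim array gave 15 for T16 against T8 in Abeta worms. Of all genes 137 were then higher and 163 lower, 79 and 32, and 1255 and 1107 in that order. With the replicate block the counts were 4, 17, 2, 28, 13 and 24 for the 3 strain comparisons and the 3 T16 against T8 comparisons. All genes were then 382 higher and 441 lower, 2247 and 2113, 182 and 360, 1840 and 2665, 599 and 662, and 1425 and 1740 in that order. The labels give no pairing, but 51 of 137 same-numbered pairs of arrays correlated above 0.1 against 105 of 470 other pairs. Closest to their own number lay 20 of 37 arrays. Both are a hint from the data of structure that the numbers share. Under that block npr-39 was not called between Abeta and GFP (0.56, adjusted p = 0.0701) nor frpr-18 in Abeta worms (-0.75, adjusted p = 0.0570), and no other of the 35 results for single members fitted with it lost its call. Of 47 results for single members 33 kept their call without each array and 0 changed direction. The groups compared alone leave fewer arrays for the spread by construction; the cause of the other changes was not tested. Offset 16 and the filter at a mean of 5 kept each of these counts within 1.5 times. Other probe sets did so too for T8 to T16, but other probe sets were not run for T0, T4 and T20. Dim members limit the list: 38 of 93 had a mean level under 5.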
